A study of Rattus norvegicus with 12 samples.

Results

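The 8 genes described here encode subunits of the transcription factor NF-kB and proteins that restrain or tune it. The subunit genes are Nfkb1, Nfkb2, Rela and Relb, and the regulator genes are Nfkbia, Nfkbiz, Tnfaip3 and Bcl3. They were taken by name from a table of 34525 rat genes, and each name stood in the table once. RNA was sequenced in 12 rat libraries of a study on chronic orofacial pain, 3 each of thalamus from CFA-treated animals, thalamus from saline-treated animals, rostral ventral medulla (RVM) from CFA-treated animals and RVM from saline-treated animals. The thalamus relays sensory signals to the cortex, and the RVM is a brainstem region that modulates pain signals. In the labels the treated groups carry the letters CFA alone, in rodent pain work the usual short form of complete Freund's adjuvant (mycobacteria in oil, which cause long-lasting inflammation), and the saline groups are given as 0.9% NS. The sources used here give no dose, site, time, strain, sex or age. Nor do the labels state that each library is a different animal; the spread that p-values are based on is that between these libraries and may be technical.

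NF-kB proteins are dimers that wait in the cytoplasm, bound by inhibitors, until cytokine or microbial receptors signal. In the canonical route the IKK kinases mark the inhibitor IkB-alpha (Nfkbia) for destruction, and dimers of RelA (Rela) and p50, which is cut from the Nfkb1 product, enter the nucleus. In the slower noncanonical route p52, cut from the Nfkb2 product, pairs with RelB. Tnfaip3 encodes the ubiquitin-editing protein A20, which shuts down signalling upstream of IKK. Nfkbiz and Bcl3 encode IkB-family proteins of the nucleus that can activate as well as repress target genes, so the word inhibitor describes them only in part. Several of these genes are textbook targets of NF-kB themselves, and in the brain the pathway is active in microglia, astrocytes, vessels and neurons.

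NF-kB dimers bind kB sites, and the promoters of the genes were therefore read for them. RefSeq (GRCr8) promoter windows, 250 bases before to 50 bases after the start site, matched 7 of the 8 genes (all but Relb). The consensus searched was 10 bases long on either strand: GGG, a purine, any pair of bases, a pair of pyrimidines, then CC. It occurred in the windows of 6 of the 7 genes, against 2515 of 33469 promoters of the same length (7.51%). The windows of Nfkb2, Nfkbia, Tnfaip3 and Bcl3 are printed because these genes rose in thalamus and show the arrangements seen (1 match in a subunit gene, 1 in an inhibitor gene, 3 in a single window, and 1 that reads on both strands). Rela is printed beside them as the gene without a match and without a call. Capitals mark the matches, and all windows run 5′ to 3′ on the strand of the gene.
Nfkb2 (chr1:255108124-255108423, plus strand): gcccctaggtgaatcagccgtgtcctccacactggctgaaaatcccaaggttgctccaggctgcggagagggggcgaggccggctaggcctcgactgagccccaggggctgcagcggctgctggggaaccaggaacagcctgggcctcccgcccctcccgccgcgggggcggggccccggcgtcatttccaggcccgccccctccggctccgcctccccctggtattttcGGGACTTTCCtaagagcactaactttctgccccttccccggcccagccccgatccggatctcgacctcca
Nfkbia (chr6:78597023-78597322, minus strand): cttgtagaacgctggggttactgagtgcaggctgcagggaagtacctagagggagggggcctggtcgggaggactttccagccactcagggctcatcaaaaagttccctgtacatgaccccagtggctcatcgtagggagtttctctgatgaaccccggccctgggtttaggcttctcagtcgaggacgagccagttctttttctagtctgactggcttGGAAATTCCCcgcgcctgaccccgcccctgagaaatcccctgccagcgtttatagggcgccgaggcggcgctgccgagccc
Tnfaip3 (chr1:15543930-15544229, minus strand): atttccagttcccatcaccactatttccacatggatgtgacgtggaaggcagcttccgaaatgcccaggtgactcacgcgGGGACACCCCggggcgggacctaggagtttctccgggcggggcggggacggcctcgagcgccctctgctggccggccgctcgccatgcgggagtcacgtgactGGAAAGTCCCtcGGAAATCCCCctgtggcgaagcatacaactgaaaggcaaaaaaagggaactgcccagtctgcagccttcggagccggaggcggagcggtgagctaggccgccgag
Bcl3 (chr1:88613506-88613805, minus strand): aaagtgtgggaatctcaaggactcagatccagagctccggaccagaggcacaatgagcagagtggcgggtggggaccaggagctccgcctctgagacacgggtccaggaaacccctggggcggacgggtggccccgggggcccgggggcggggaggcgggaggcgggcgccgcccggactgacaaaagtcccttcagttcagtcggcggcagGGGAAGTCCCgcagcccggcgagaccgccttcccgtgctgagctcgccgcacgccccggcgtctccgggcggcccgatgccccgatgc
Rela (chr1:212354086-212354385, plus strand): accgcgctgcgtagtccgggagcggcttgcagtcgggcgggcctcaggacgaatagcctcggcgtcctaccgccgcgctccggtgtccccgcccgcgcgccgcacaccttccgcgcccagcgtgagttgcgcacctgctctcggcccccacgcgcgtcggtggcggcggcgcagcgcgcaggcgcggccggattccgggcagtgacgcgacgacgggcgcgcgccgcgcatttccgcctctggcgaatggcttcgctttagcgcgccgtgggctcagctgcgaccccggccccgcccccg

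The match lay at -20 to -11 in Nfkb2, counted from the start site, at -31 to -22 in Nfkbia (on the opposite strand) and at -38 to -29 in Bcl3. Tnfaip3 held 3 matches, at -170 to -161, -67 to -58 and -55 to -46, whereas 378 of all promoters (1.13%) held 2 or more. In the windows not printed, the match lay at -13 to -4 in Nfkbiz and at 4 to 13 after the start site in Nfkb1. Matches describe letters in these windows and are not measured binding sites, and a window without one says nothing of NF-kB elsewhere at that gene. Where list genes had a window, matches occurred in 8 of 17 NF-kB target genes, 3 of 9 ligand genes, 3 of 10 receptor genes, 3 of 20 adaptor and kinase genes and 3 of 15 genes of other subunits and inhibitors.

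**Figure D1:**
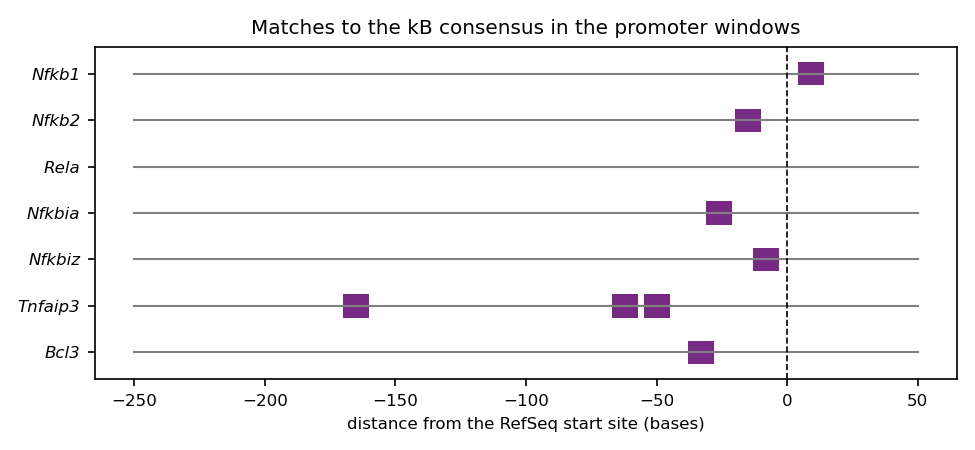
Positions of matches to the kB consensus (boxes) in the RefSeq promoter windows of 7 genes; the horizontal axis is distance from the start site in bases, with the start site dashed. In 5 genes a match lay within the 67 bases before the start site, and Rela had none.

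Levels are in FPKM, fragments scaled to gene length and library size, which allows levels of different genes to be set side by side. The libraries held 14.94 to 19.24 M reads assigned to genes, recovered from the table. At that depth the limit for a gene at 0, taken as 3 reads, corresponds to 0.156 to 0.201 CPM (reads scaled to library size), and such limits cover counting error only. Hindbrain markers (8 genes) summed to 77.9 to 92.4 FPKM in RVM CFA and 89.3 to 116 FPKM in RVM saline, against at most 1.10 FPKM in any thalamus library. Thalamic markers (7 genes) summed to 190 to 607 FPKM in thalamus CFA and 467 to 992 FPKM in thalamus saline, and to 177 to 224 FPKM in RVM. Much of the sum in RVM was Calb2 and Slc17a6. Thalamus CFA library 1 had the lowest sum of the thalamus libraries, 190 FPKM, and its Tcf7l2 (28.9 FPKM), Prkcd (28.6), Lef1 (7.35) and Gbx2 (6.03) were below those of the other thalamus libraries but above every RVM library, where they reached at most 2.10, 9.34, 3.34 and 2.06 FPKM. The same library held 10242 FPKM of the 8 choroid plexus and ependyma markers measured, thalamus CFA library 2 held 2469 and library 3 held 21.5, against 9.26 to 41.8 FPKM in thalamus saline. Photoreceptor and retina markers (6 genes) summed to at most 5.11 FPKM in any library; part of the extraction text in the labels speaks of retinas.

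Against saline, CFA thalamus had higher levels of 7 of the 8 genes. All 3 subunit genes other than Rela rose, and so did all 4 regulator genes. On the log2(FPKM + 1) scale the largest differences were those of Bcl3 and Nfkb2. The smallest among the 7 were those of Nfkb1 and Nfkbia, the most abundant of the 7 in saline thalamus. Over all genes tested, 565 of 14722 (3.84%) were higher in CFA thalamus by limma at a Benjamini-Hochberg adjusted p below 0.05 and 40 were lower. The median log2 change, on the log2(FPKM + 1) scale used throughout, was 1.22 over the 8 genes and -0.08 over all genes tested. All 8 genes passed the filter of a mean of 1 FPKM over the libraries compared, but Nfkbiz and Bcl3 reached that mean only through the CFA libraries. Of the 6 that reach it in saline thalamus alone, 5 were higher. For 7 genes the lowest CFA library lay above the highest saline library, as it did for 12.2% of all genes tested.

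**Figure D2:**
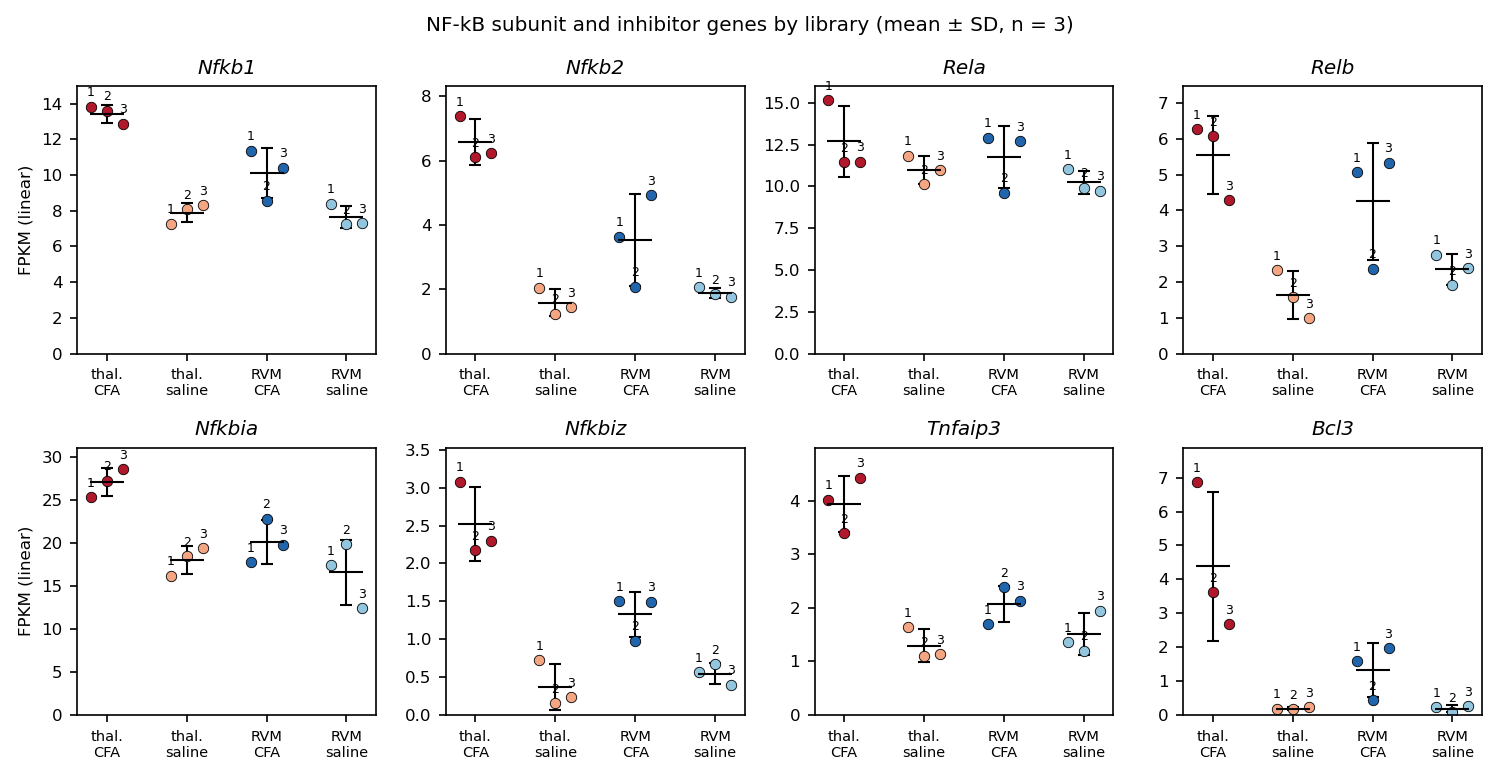
FPKM (linear axes) of each gene in each library, with the mean and SD of 3 libraries per group; numbers name the libraries. Thalamus CFA libraries stand above all thalamus saline libraries for every gene but Rela, and the mean of the RVM CFA libraries lies below that of the thalamus CFA libraries for all 8 genes.

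Among the subunit genes, Nfkb2 (ENSRNOG00000019311, chromosome 1, 266053002 to 266059256 as the table lists it, build not given) differed most. Its levels were 7.39, 6.11 and 6.24 FPKM in thalamus CFA libraries 1 to 3 and 2.05, 1.24 and 1.44 FPKM in thalamus saline libraries 1 to 3. The lowest CFA library was thus far above the highest saline library. The means were 6.58 ± 0.704 and 1.57 ± 0.421 FPKM in CFA and saline (SD, n = 3 each), and the log2 change was 1.57 (SE 0.16, adjusted p 0.00394 by limma). Of the calls on the 8 genes, that of Nfkb2 was the single one to hold whichever of the 6 libraries was left out.

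Relb (ENSRNOG00000033235, chromosome 1, 80517411 to 80544825), whose protein pairs with p52, had 6.26, 6.06 and 4.29 FPKM in thalamus CFA, against 2.32, 1.57 and 0.991 FPKM in thalamus saline. Library 3 was the lowest of its group in both treatments, and the groups did not overlap. Its log2 change was 1.33 (SE 0.23, adjusted p 0.0298 by limma). The call was lost without CFA library 1 (adjusted p 0.109 by limma), CFA library 2 (0.0986), saline library 2 (0.118) or saline library 3 (0.0893), and when no genes were filtered out (0.0565).

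Nfkb1 (ENSRNOG00000023258, chromosome 2, 240773456 to 240866689), the source of p50, had 13.8, 13.6 and 12.9 FPKM in thalamus CFA, against 7.28, 8.09 and 8.31 FPKM in thalamus saline. These were the tightest CFA values of the 4 subunit genes, with a mean of 13.4 ± 0.506 FPKM, against 7.90 ± 0.543 FPKM in saline (SD, n = 3 each). The log2 change was 0.70 (SE 0.09, adjusted p 0.0101 by limma), and the adjusted p was 0.0529 without saline library 2. Rela (ENSRNOG00000030888, chromosome 1, 220992770 to 221003249), the main activating subunit of the canonical route, had 15.2, 11.4 and 11.5 FPKM in thalamus CFA, against 11.8, 10.1 and 11.0 FPKM in thalamus saline. CFA libraries 2 and 3 lay below saline library 1, so the groups overlapped. The log2 change of Rela was 0.18, with a 95% confidence interval of -0.14 to 0.51 (adjusted p 0.436 by limma). At the deposited scaling this leaves room for a rise of up to the upper bound. With 3 other scalings the change of Rela was 0.21 to 0.34, and with limma-voom on recovered reads 0.38. Rela passed in none of these fits. In saline thalamus Rela was the most abundant of the 4 subunit genes per length, ahead of Nfkb1, with Relb and Nfkb2 lowest.

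Among the regulator genes, Nfkbia (ENSRNOG00000007390, chromosome 6, 76267228 to 76270457) was the most abundant of all 8. It had 25.3, 27.3 and 28.5 FPKM in thalamus CFA and 16.2, 18.4 and 19.4 FPKM in thalamus saline. The groups did not overlap, and the log2 change was 0.56 (SE 0.10, adjusted p 0.0356 by limma), the smallest of the 7 that passed. Its call did not survive the loss of any 1 of the 6 libraries, with adjusted p from 0.0644 to 0.131 by limma and log2 changes from 0.49 to 0.62. Tnfaip3 (ENSRNOG00000049517, chromosome 1, 14402913 to 14412807), the A20 gene, had 4.03, 3.39 and 4.43 FPKM in thalamus CFA, against 1.64, 1.10 and 1.14 FPKM in thalamus saline. Here too all CFA libraries were above all saline libraries. The log2 change was 1.11 (SE 0.16, adjusted p 0.0143 by limma). The adjusted p lay between 0.0592 and 0.0779 without CFA library 1, CFA library 3, saline library 2 or saline library 3.

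The genes of the nuclear IkB proteins were the lowest in saline. Bcl3 (ENSRNOG00000043416, chromosome 1, 80730499 to 80744831), whose protein binds p50 and p52 dimers, had 6.87, 3.62 and 2.68 FPKM in thalamus CFA, against 0.187, 0.165 and 0.224 FPKM in thalamus saline. Behind these stood 246, 116 and 84 reads in thalamus CFA and 7, 5 and 7 reads in thalamus saline. CFA library 1 was the highest by far, and the groups were far apart. The log2 change was 2.10 (SE 0.29, adjusted p 0.0124 by limma), and the adjusted p was 0.0608 without saline library 2 and 0.062 without saline library 3. Nfkbiz (ENSRNOG00000031163, chromosome 11, 47243342 to 47271487), which encodes IkB-zeta, had 3.08, 2.18 and 2.30 FPKM in thalamus CFA, against 0.720, 0.154 and 0.239 FPKM in thalamus saline. Library 1 was the highest of its group in both treatments, without overlap. The log2 change of Nfkbiz was 1.37 (SE 0.22, adjusted p 0.0228 by limma). Its adjusted p was 0.066 to 0.104 in the fits without saline library 2, saline library 3, or any of the 3 CFA libraries. Because 1 FPKM was added before taking logs, the changes of low genes are understated. With 0.1 FPKM added instead, the log2 changes were 3.84 for Bcl3, 2.65 for Nfkbiz, 2.02 for Nfkb2 and 1.55 for Tnfaip3. On the recovered reads, with limma-voom, the log2 changes were 4.50 for Bcl3, 3.17 for Nfkbiz, 2.25 for Nfkb2 and 1.78 for Tnfaip3. The limma-voom fit also scales libraries differently, and its median over all genes tested was 0.091, against -0.076 as reported. Nfkbiz thus stood above Nfkb2 in both fits, and the same 7 genes passed in each.

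**Figure D3:**
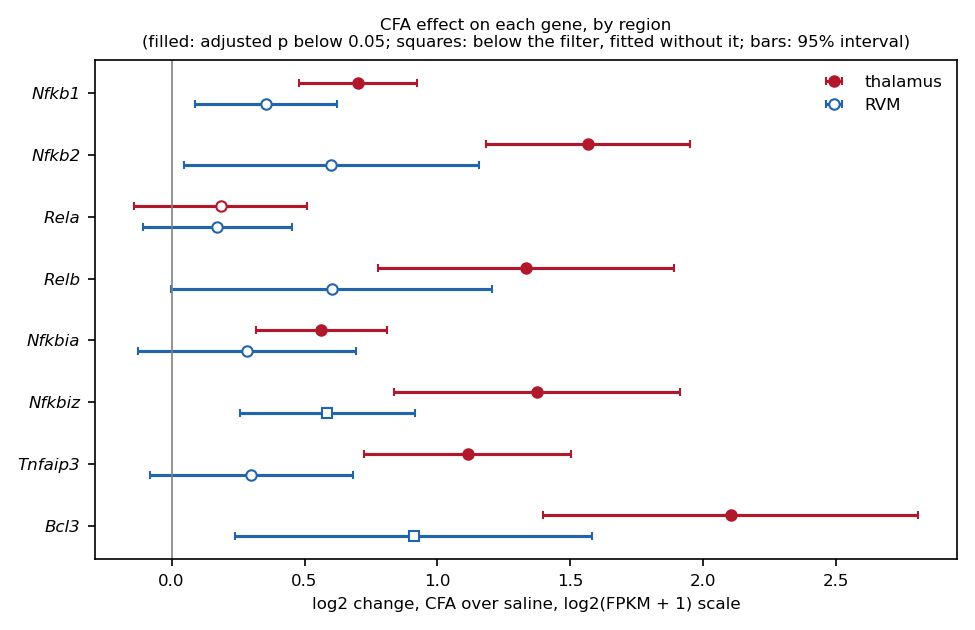
Log2 change, CFA over saline, of each gene in thalamus and RVM on the log2(FPKM + 1) scale, with 95% intervals from limma; filled points passed an adjusted p of 0.05, and squares mark genes below the filter. In thalamus 7 genes passed, and in RVM none of the 6 tested did.

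**Figure D4:**
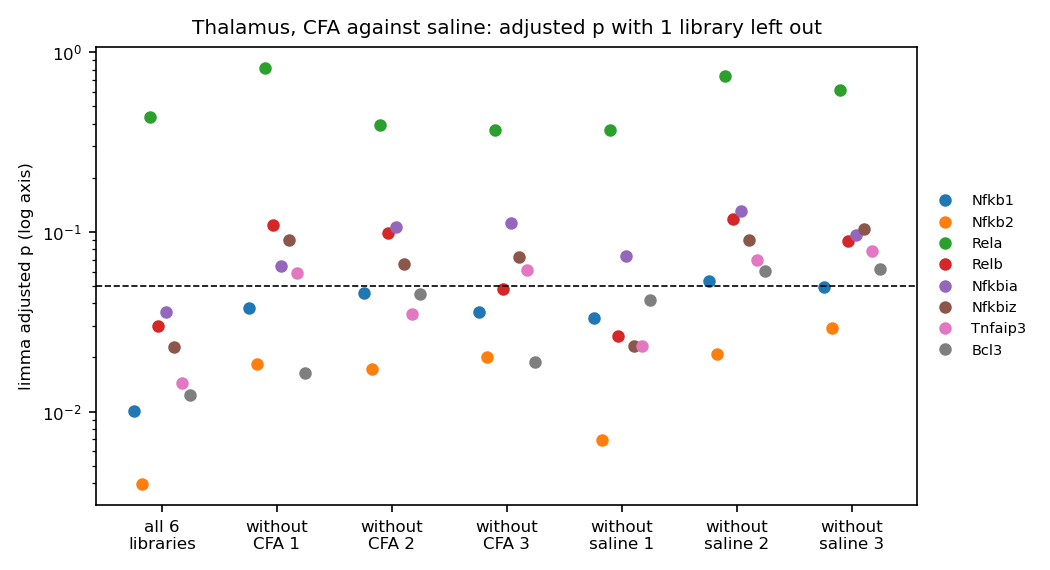
Adjusted p by limma (log axis) for each gene in thalamus with all 6 libraries and with each library left out; the dashed line is 0.05. Nfkb2 stays under the line throughout, Rela stays above it, and Nfkbia is above it whenever a library is missing.

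Some cell type markers also differed between CFA and saline thalamus, and others overlapped. The 11 microglia and macrophage markers measured summed to 999 to 1360 FPKM in thalamus CFA and 231 to 268 FPKM in thalamus saline. The 8 neutrophil and monocyte markers summed to 562 to 632 FPKM in CFA and 22.5 to 38.2 FPKM in saline; nearly all of this was Lyz2, at 534 to 621 FPKM in CFA and 21.1 to 36.8 FPKM in saline, while the granule genes Mpo, Elane and Ngp reached at most 0.163 FPKM in CFA and Ly6c was at 0. The other 3 genes of the list were higher in all CFA libraries: S100a8 had 10.6, 2.19 and 7.98 FPKM in CFA, against at most 0.331 FPKM in saline, S100a9 18.7, 4.46 and 14.9 FPKM, against at most 0.354 FPKM, and Csf3r 6.04, 5.14 and 4.64 FPKM, against at most 0.920 FPKM. The 8 T and B lymphocyte markers measured summed to 12.9 to 67.7 FPKM in CFA and 1.88 to 5.49 FPKM in saline; Cd4, which rat myeloid cells also express, made up most of the sums, at 54.0, 7.27 and 8.26 FPKM in CFA and 1.61, 4.99 and 1.45 FPKM in saline. The 8 meningeal and mural markers summed to 51.2 to 248 FPKM in CFA and 41.2 to 65.5 FPKM in saline, with library 1 the highest in each group. Astrocyte markers (8 genes) overlapped, at 1858 to 2448 FPKM in CFA and 2225 to 2420 FPKM in saline, as did endothelial markers (6 genes), at 48.9 to 55.7 FPKM in CFA and 46.3 to 50.4 FPKM in saline, with Cldn5 at 0 in all libraries. Neuron markers (7 genes) summed to 1095 to 1591 FPKM in CFA and 1533 to 2200 FPKM in saline, and oligodendrocyte markers (6 genes) to 4543 to 5253 FPKM in CFA and 4688 to 7323 FPKM in saline. The part of these marker shifts in the results on the 8 genes was not tested, and in such bulk samples fewer or more cells of a type cannot be told apart from less or more RNA per cell. CFA library 3, whose choroid plexus markers (21.5 FPKM) were within the saline range, had levels of Nfkb1, Nfkb2, Relb, Nfkbia, Nfkbiz, Tnfaip3 and Bcl3 above all 3 saline libraries. The meningeal and mural markers of that library summed to 93.5 FPKM, above the saline range of 41.2 to 65.5 FPKM. With CFA libraries 1 and 2 both left out, the log2 changes of the 5 called genes still tested were 0.64 (Nfkb1), 1.504 (Nfkb2), 1.04 (Relb), 0.64 (Nfkbia) and 1.25 (Tnfaip3), and none passed by limma (adjusted p 0.143 to 0.445); the lone CFA library is then assumed to vary as the saline libraries do.

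In RVM, 4 of the 8 genes were higher in every CFA library than in any saline library, but none passed the test. These were Nfkb1, Nfkb2, Nfkbiz and Bcl3, of which the last 2 were below the filter. Among tested genes the separation was seen for 2 of the 6, and for 7.27% of all genes. Of the 8 genes 6 passed the filter, and 0 of them and 0 of 14289 genes (0%) were higher by limma at an adjusted p of 0.05. At an unadjusted p below 0.05, 2 of the 6 and 2030 of all genes differed, and limma-voom also called 0. The median log2 change was 0.33 over the 6 genes and -0.02 over all genes tested.

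Nfkb1 had 11.4, 8.57 and 10.4 FPKM in RVM CFA, against 8.39, 7.25 and 7.32 FPKM in RVM saline, a log2 change of 0.36 (SE 0.11, adjusted p 0.264 by limma). Nfkb2 had 3.63, 2.07 and 4.93 FPKM in RVM CFA, against 2.07, 1.84 and 1.77 FPKM in RVM saline, a log2 change of 0.60 (SE 0.23, adjusted p 0.322 by limma). For both genes CFA library 2 was the lowest of its group and lay just above the highest saline library, in Nfkb2 at 2.0745 FPKM against 2.0719 FPKM. Relb had 5.06, 2.37 and 5.33 FPKM in RVM CFA, against 2.76, 1.91 and 2.38 FPKM in RVM saline (log2 change 0.60, adjusted p 0.353 by limma), and CFA library 2 lay inside the saline range. Rela had 12.9, 9.63 and 12.7 FPKM in RVM CFA, against 11.0, 9.92 and 9.76 FPKM in RVM saline. Its log2 change was 0.17, with a 95% confidence interval of -0.11 to 0.45 (adjusted p 0.566 by limma), and CFA library 2 was below all saline libraries.

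The regulator genes did not share 1 order of libraries. Nfkbia had 17.8, 22.8 and 19.8 FPKM in RVM CFA, against 17.4, 19.9 and 12.4 FPKM in RVM saline (log2 change 0.28, adjusted p 0.508 by limma). Tnfaip3 had 1.70, 2.38 and 2.14 FPKM in RVM CFA, against 1.36, 1.20 and 1.95 FPKM in RVM saline (log2 change 0.30, adjusted p 0.45 by limma). In both genes the groups overlapped, and CFA library 2 was the highest of its group. Nfkbiz, with 1.51, 0.981 and 1.496 FPKM in RVM CFA and 0.564, 0.672 and 0.402 FPKM in RVM saline, was under the filter. Bcl3, with 1.59, 0.433 and 1.97 FPKM in RVM CFA and 0.229, 0.0761 and 0.256 FPKM in RVM saline, was under it as well. Both were lowest in CFA library 2 within the CFA group, and still above saline. Fitted without the filter they gave log2 changes of 0.59 (Nfkbiz, adjusted p 0.361 by limma) and 0.91 (Bcl3, adjusted p 0.389). Bcl3 had 54, 15 and 62 reads in RVM CFA and 7, 2 and 8 reads in RVM saline.

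RVM CFA library 2 was lower than the other 2 in immune cell markers too. The microglia and macrophage markers summed to 1304, 401 and 1113 FPKM in RVM CFA libraries 1 to 3, against 236 to 291 FPKM in RVM saline. The neutrophil and monocyte markers, again mostly Lyz2, summed to 151, 55.9 and 182 FPKM in RVM CFA, against 33.2 to 46.9 FPKM in RVM saline, and the lymphocyte markers to 49.7, 2.58 and 5.64 FPKM, against 1.97 to 3.10 FPKM. Of the lymphocyte sum in CFA library 1, 47.2 FPKM was Cd4. Oligodendrocyte markers set library 2 apart from saline as they did the others, with 16815, 17467 and 16535 FPKM in RVM CFA, against 22315 to 25359 FPKM in RVM saline. Without that library, 396 of 14264 genes (2.78%) were higher and 88 lower in RVM CFA by limma. Nfkb2 (log2 change 0.86, adjusted p 0.0393) and Relb (0.89, adjusted p 0.0285) were then among the higher genes by limma, 2 of the 6 tested. Library 2 had the lowest Nfkb2 and Relb of its group, so leaving it out raises both changes. Leaving out any other single RVM library gave 0 calls among the genes described. The part of the marker differences in the calls without library 2 was not tested.

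Whether CFA changed the 8 genes more in thalamus than in RVM was tested as the interaction of region and treatment over all 12 libraries. All 6 genes that could be tested had a larger change in thalamus as estimated, but none passed by limma, nor did any of 13738 genes (0%). The difference of the log2 changes, thalamus minus RVM, was 0.97 for Nfkb2 (SE 0.30, adjusted p 0.363), 0.81 for Tnfaip3 (SE 0.22, adjusted p 0.337), 0.73 for Relb (SE 0.37, adjusted p 0.47) and 0.34 for Nfkb1 (SE 0.15, adjusted p 0.423), all by limma. It was 0.28 for Nfkbia and 0.01 for Rela, and the value for Rela changed sign under some settings. At an unadjusted p below 0.05, 3 of the 6 genes (Nfkb1, Nfkb2 and Tnfaip3) and 1560 of all genes differed, and limma-voom called 0. The calls in thalamus and their lack in RVM therefore do not show a difference between the regions.

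In the order of group means, thalamus CFA was the highest and RVM CFA came next for all 8 genes. The libraries of these 2 groups did not overlap for Nfkb1, Nfkb2, Nfkbia, Nfkbiz, Tnfaip3 and Bcl3, and overlapped for Rela and Relb. The share of all genes separated in this way was not computed for this pair of groups, nor for the saline groups. Whether the separation is particular to these genes is therefore not known. The saline groups of the regions overlapped for all 8 genes. Between thalamus and RVM of saline animals, 3250 of 14396 genes (22.6%) were higher in thalamus and 3273 lower, yet 0 of the 6 genes tested passed by limma, also at an unadjusted p below 0.05 and by limma-voom. The log2 differences, thalamus over RVM, ran from -0.37 (Relb, adjusted p 0.200 by limma) to 0.13 (Nfkbia, adjusted p 0.551). In Relb the values were 2.32, 1.57 and 0.991 FPKM in thalamus saline and 2.76, 1.91 and 2.38 FPKM in RVM saline; it passed as lower in thalamus (adjusted p 0.0472 by limma) when thalamus saline library 1 was left out.

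Upstream of the 8 genes, 3 of 10 cytokine and other ligand genes and 6 of 12 receptor genes listed rose in CFA thalamus, and 0 fell; of all genes tested, 3.84% rose. Of the ligand genes 3 were tested, and 1 of these reaches the filter in saline alone. Tnf, Lta, Ltb and Tnfsf11, also on the list, were at 0 or at most 0.0922 FPKM in every thalamus library. Il1b, which encodes interleukin-1 beta, had 11.2, 6.15 and 12.9 FPKM in thalamus CFA, against 0.252, 0.179 and 0.0433 FPKM in thalamus saline (log2 change 3.21, adjusted p 0.00194 by limma). Il18, which encodes another cytokine of the same family, had a log2 change of 1.03 (adjusted p 0.0302 by limma), and Tnfsf13b, which encodes the B cell factor BAFF, one of 1.44 (adjusted p 0.0387); the call of Il18 was lost in 5 of 6 fits that left out a library and that of Tnfsf13b in 6. Of the receptor genes 10 were tested, with a median log2 change of 1.10, and 7 reach the filter in saline alone, of which 3 rose. With 1 library left out, 3 to 5 of the 6 receptor calls remained, and that of Tlr3 was lost in all 6 fits. Il1rap (log2 change -0.12) and Tnfrsf11a (-0.03), named after their values were seen, did not pass. Tlr2, a receptor for bacterial lipoproteins, averaged 10.8 ± 1.04 FPKM in thalamus CFA and 1.92 ± 0.307 FPKM in thalamus saline (SD, n = 3 each), a log2 change of 2.02 (adjusted p 0.000764 by limma). The TNF receptor genes Tnfrsf1b and Tnfrsf1a had log2 changes of 1.66 and 1.43 (adjusted p 0.0059 and 0.00743 by limma), and Tlr4, the receptor for bacterial lipopolysaccharide, 1.19 (adjusted p 0.011). Of these 4, Tlr4 lost its call in 3 of the 6 fits with a library left out (without CFA library 1, saline library 2 or saline library 3).

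Between receptor and NF-kB, 25 of 27 adaptor and kinase genes were tested, 2 rose (3.84% of all genes tested did) and 0 fell, with a median log2 change of 0.27. In saline thalamus alone 22 reach the filter, of which 1 rose, Birc3 being under it there. Birc3, which encodes the ubiquitin ligase cIAP2, had 4.21, 4.76 and 3.62 FPKM in thalamus CFA, against 0.600, 0.441 and 0.347 FPKM in thalamus saline (log2 change 1.83, adjusted p 0.00232 by limma). Myd88, which encodes the adaptor of most Toll-like receptors, averaged 7.17 ± 1.94 FPKM in thalamus CFA and 2.20 ± 0.400 FPKM in thalamus saline (log2 change 1.33, adjusted p 0.015 by limma); without saline library 2 or 3 the adjusted p was 0.0746 and 0.0787. The IKK genes, named after their values were seen, did not pass: the log2 change was 0.23 for Ikbkb (adjusted p 0.249 by limma), 0.40 for Ikbkg (0.271) and 0.11 for Chuk (0.761). Of 17 genes of other subunits and inhibitors 14 were tested, 2 rose and 0 fell, with a median of 0.01; 12 reach the filter in saline thalamus alone, of which 1 rose, and Zc3h12a does not. Zc3h12a, which encodes the RNase regnase-1, had a log2 change of 1.18 (adjusted p 0.0132 by limma), and Nfkbie, which encodes IkB-epsilon, one of 0.64 (adjusted p 0.0463). Calls were lost in 4 of 6 such fits for Zc3h12a and in 6 for Nfkbie. Rel, the remaining subunit gene, had 1.87, 2.23 and 1.84 FPKM in thalamus CFA, against 1.25, 0.775 and 0.751 FPKM in thalamus saline, without overlap, but did not pass (log2 change 0.64, adjusted p 0.125 by limma). Cyld, the gene of a deubiquitinase that restrains the pathway, had a log2 change of -0.63 (adjusted p 0.221 by limma); these 2 genes too were named after their values were seen.

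Downstream, 21 of 26 genes listed as known NF-kB targets were tested, 9 rose and 0 fell, with a median log2 change of 1.51; of the 12 that reach the filter in saline thalamus alone, 5 rose. Bcl2a1, an anti-apoptotic gene of the Bcl2 family, had 17.1, 13.4 and 13.9 FPKM in thalamus CFA, against 2.23, 1.27 and 1.30 FPKM in thalamus saline (log2 change 2.62, adjusted p 0.000993 by limma). Icam1, the adhesion molecule of endothelium and leukocytes, had 10.3, 9.28 and 7.65 FPKM in thalamus CFA, against 1.35, 1.18 and 0.640 FPKM in thalamus saline (log2 change 2.30, adjusted p 0.00173 by limma). Irf1, an interferon regulatory factor, and Ier3, an immediate early gene, had log2 changes of 2.34 and 1.36 (adjusted p 0.00541 and 0.00442 by limma). These 4 calls held with each library left out, as did those of Ccl2 and Cxcl10. Of the other 3 calls, that of Csf1 was lost in 5 of 6 such fits, that of Cxcl1 in 3 and that of Ccl4 in 1, so that 6 to 9 of the 9 remained. In RVM none of the genes on the 5 lists passed by limma. The medians there were 0.79 for ligands, 0.47 for receptors, 0.08 for adaptors and kinases, 0.03 for other subunits and inhibitors and 0.37 for targets. The 2 smallest p-values of each list in RVM belonged to Il1b (log2 change 1.19, adjusted p 0.246 by limma) and Tnfsf13b (0.79, 0.391) among the ligands and to Il1r1 (0.49, 0.242) and Tlr4 (0.68, 0.242) among the receptors. They belonged to Myd88 (0.65, 0.254) and Card9 (0.41, 0.292) among the adaptors and kinases, to Nfkbie (0.42, 0.322) and Tax1bp1 (0.10, 0.384) among the other subunits and inhibitors, and to Icam1 (0.88, 0.242) and Ier3 (0.62, 0.254) among the targets.

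**Figure D5:**
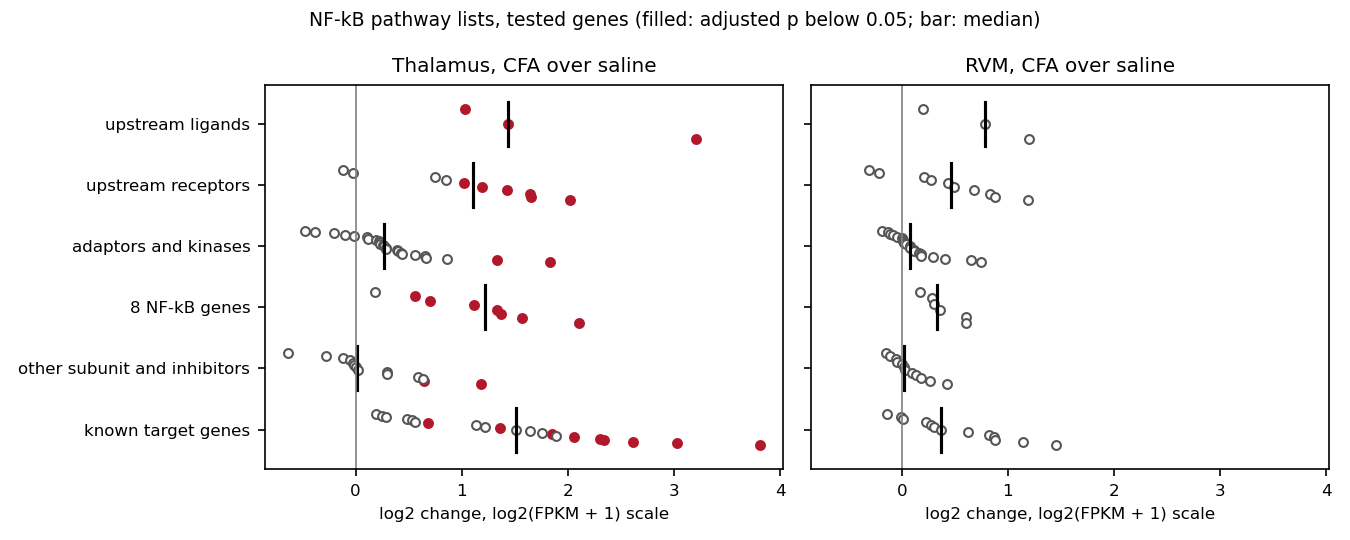
Log2 change, CFA over saline, of each tested gene of the 5 pathway lists and of the 8 NF-kB genes in thalamus and RVM; filled points passed an adjusted p of 0.05 and bars mark medians. In thalamus 9 of 21 targets and 2 of 25 adaptors and kinases are filled; the medians include genes that passed the filter only through the CFA libraries.

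Across the 12 libraries Pearson's r of log2(FPKM + 1) between pairs of the 8 genes ran from 0.330 (Rela and Nfkbia) to 0.973 (Nfkb2 and Nfkbiz), as a description over libraries that share region, treatment and depth. It was 0.330 to 0.777 in the 7 pairs with Rela, 0.330 to 0.760 in the 7 with Nfkbia and 0.758 to 0.973 in the 15 pairs of the other 6 genes. Among 12258 named genes, the patterns most like each gene were those of Pou2f2 (r 0.988) and Cd68 (0.975) for Nfkb1, of Lyz2 and Csf3r (0.987 each) for Nfkb2, and of Calhm2 (0.941) and Dclre1c (0.913) for Rela. For Relb they were Psmb8 (0.980) and Rps2 (0.979), for Nfkbia Mrc1 (0.847) and Steap4 (0.819), and for Nfkbiz Ptbp3 (0.977) and Bcl2a1 (0.972). For Tnfaip3 they were Slc37a2 (0.938) and Il1b (0.935), and for Bcl3 Cxcl1 (0.988) and Tnfrsf14 (0.975). Cd68, Lyz2 and Csf3r are among the myeloid markers summed above, and the other nearest genes are on none of the marker lists.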

How the data were processed

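Per the labels' protocols, TRIzol was used for RNA and the Illumina TruSeq RNA kit for libraries. The authors deposited FPKM values per gene with gene lengths, per the file headers; the sources used here name no aligner, counter, genome build or strand setting. FPKM times gene length was a whole multiple of 1 step for 100% of the values checked (tolerance 0.01), so reads were recovered. The check left out values of 0 and the highest values. The total the authors divided by was 0.9335 to 1.168 times the recovered total (1.109 to 1.168 in thalamus CFA). No pair of replicates agreed within sampling noise (chi-square per degree of freedom 7.44 to 62.3).

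The 8 genes and all lists were chosen with earlier results of these data known. Values were tested as log2(FPKM + 1) with limma 3.58.1 (R 4.3.3, empirical Bayes trend, no covariates) for genes whose mean reached 1 FPKM, adjusted by Benjamini-Hochberg over all genes tested, with a threshold of 0.05. Both CFA comparisons and the saline comparison used 6 libraries and the interaction 12. Of 92 pathway genes 89 matched by symbol. Named genes were all 8, up to 4 passing genes per list with the smallest p (otherwise the 2 smallest), and the 2 nearest patterns per gene. Alternatives were pseudocount 0.1, no filter, a filter at 5 FPKM, 3 other scalings, robust fits, quality weights, the replicate number as block, a 12-library model, limma-voom on recovered reads, and libraries left out. Promoters were read with Python 3.11.15. The fits were tested on simulated counts with known changes and a fixed spread between libraries, not the spread of these libraries. A minimum recovery of the larger changes was required for every comparison but the interaction.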

Additional observations from a re-analysis of the deposited data

How the results depend on the processing

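In thalamus the count of genes called was 605, against 298 with a filter at 5 FPKM, 1010 with quality weights, 1338 with the replicate block, 1932 in the 12-library model, 66 without CFA libraries 1 and 2, and 309 to 547 with each library left out. Of the 8 genes 7 were called, against 2 with the 5 FPKM filter (3 tested), 0 without CFA libraries 1 and 2 (6 tested), and 1 to 6 with each library left out (1 without saline library 2, 2 without saline library 3, 3 without CFA library 1, 4 without CFA library 2 or 3). All 7 were called under the 3 scalings, although scaling to the same total put the median of all genes at 0.069 (log2), against -0.076 as reported. In thalamus, same-numbered CFA and saline libraries had correlations of 0.358, 0.057 and 0.267, and differently numbered ones had correlations from -0.45 to 0.316. Thalamus CFA library 3 correlated best with saline library 2 (0.316). In RVM the correlations were -0.027, 0.001 and -0.008 for the same number, and -0.013 to 0.021 for different numbers. These values do not settle whether the replicate numbers pair the libraries. With the block, 7 of the 8 genes were called in thalamus and 0 in RVM. In RVM 1 gene was called without a filter, and 0 to 484 with each library left out (0 to 2 of the genes described). For the interaction 11 genes were called without a filter, 29 with the block, 146 without thalamus saline library 1 and CFA library 1, and 0 to 15 with each library left out. Between regions in saline, 1 of the genes (Relb) was called with quality weights and 0 to 1 with each library left out; scaling to the same total gave 4559 higher and 2013 lower genes in thalamus, and limma-voom 3781 and 2587. Signs turned for Nfkb1 between regions under quantile normalization (-0.056), for Nfkbia between regions with libraries left out (-0.049 to 0.27), and for the Rela interaction under quality weights (-0.090), without thalamus CFA libraries 1 and 2 (-0.11), without thalamus saline 1 and CFA 1 (-0.063) and with each library left out (-0.114 to 0.0802). Causes were not tested; fewer genes or libraries entered the filtered and left-out fits. With 3 libraries a group and under 10 reads of Bcl3 in each saline library, small differences were not detectable.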
